A study of Mus musculus with 4 samples.

Results

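The Nodal signalling genes described here are 9 genes of the bulk and allele-specific RNA count tables, chosen by name for their place in the pathway and found in the bulk table through the symbols of their gene identifiers. They are the ligand *Nodal*, the co-receptor *Tdgf1*, the receptors *Acvr1b* and *Acvr2b*, the secreted inhibitors *Lefty1* and *Lefty2* and the effectors *Smad2*, *Smad3* and *Foxh1*, which make 9 of the 55602 genes counted. RNA was sequenced from day 12 cells of JB1, a mouse embryonic stem cell (ESC) line from a cross of JF1 (maternal) with C57BL/6 (B6, paternal), after differentiation toward neural progenitor cells (NPCs). The groups were wild-type JB1 cells and *Zfp57*-/- cells derived from JB1, with 2 biological replicates each, so that genotype and cell line cannot be told apart. Both groups were grown in the same defined medium with 1 µM cyclopamine, an inhibitor of Sonic hedgehog signalling, from day 2 to day 10, after ESC culture with a GSK3 inhibitor, and no untreated cells were analysed here. ZFP57 is a zinc finger protein that maintains DNA methylation at imprinting control regions.

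The bulk libraries held 7663520 to 10337082 counts and the allele-specific ones 2837013 to 3826604. For *Zfp57* itself, 392 and 249 fragments were counted in wild-type against 158 and 144 in *Zfp57*-/- cells (log2 fold change -1.19 with a standard error of 0.32, edgeR adjusted p = 0.0225, or 0.0719 without the second *Zfp57*-/- replicate). The counts cover the whole gene and do not set apart the part deleted in the knockout, so the remaining reads do not check the labels.

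Nodal is a secreted ligand of the TGF-beta superfamily. It binds type II activin receptors such as ACVR2B and the type I receptor ACVR1B together with an EGF-CFC co-receptor, CRIPTO (the product of *Tdgf1*) or CRYPTIC (*Cfc1*), and the activated receptors phosphorylate SMAD2 and SMAD3. With SMAD4, these enter the nucleus and act at DNA with partners such as FOXH1, and *Nodal* itself and the inhibitors *Lefty1* and *Lefty2* are among the targets. The pathway is known for holding the epiblast in its state and for inducing mesoderm and endoderm, and its inhibition favours neural fate in ESCs.

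*Lefty1* and *Lefty2* are neighbouring copies, and their sequences bear on whether their reads can be told apart. *Lefty2* (ENSMUSG00000066652.5, chromosome 1 from 180893108 to 180899103, plus strand) ends 35918 bases before *Lefty1* (ENSMUSG00000038793.8, 180935022 to 180938400, plus strand) on the GRCm38 build. Their coding sequences were 1104 bases each and identical at 1014 aligned bases (91.8%). Of the windows of 125 bases, the length of a sequenced read, 41 of 1632 from *Lefty1* transcripts (2.51%) and 41 of 2485 from *Lefty2* transcripts (1.65%) also occurred in the other gene. For *Tdgf1*, 36 of 2740 windows (1.31%) also occurred in the pseudogene *Tdgf1-ps1*, and the other 6 members had none in any other gene. The counts kept only reads that aligned once, so a fragment that lay wholly in such windows would not have been counted.

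The ligand *Nodal*, the co-receptor *Tdgf1*, the inhibitors *Lefty1* and *Lefty2* and the DNA-binding partner *Foxh1* had 0 to 6 counts per wild-type library and 145 to 2301 per *Zfp57*-/- library. The receptor *Acvr2b* and the effector *Smad3* fell in *Zfp57*-/- cells, and *Acvr1b* and *Smad2* did not pass the test. All 9 genes passed the filter on low counts (more than 8 counts summed over the 4 libraries), *Tdgf1*, *Lefty1*, *Lefty2* and *Foxh1* through the *Zfp57*-/- libraries. In edgeR's quasi-likelihood test, with p-values adjusted by Benjamini-Hochberg over all 19995 genes tested and a threshold of 0.05, 5 members were higher and 2 lower. Of all genes tested, 27.6% passed, 13% as higher and 14.6% as lower. The median log2 fold change of the 9 members, *Zfp57*-/- over wild-type, was 6.10, or 5.35 with *Lefty1*, *Lefty2* and *Tdgf1* set at the lower bounds given below, and that of all genes tested was -0.01. In a bulk sample, fewer cells of a type and less RNA per cell cannot be told apart.

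**Figure D1:**
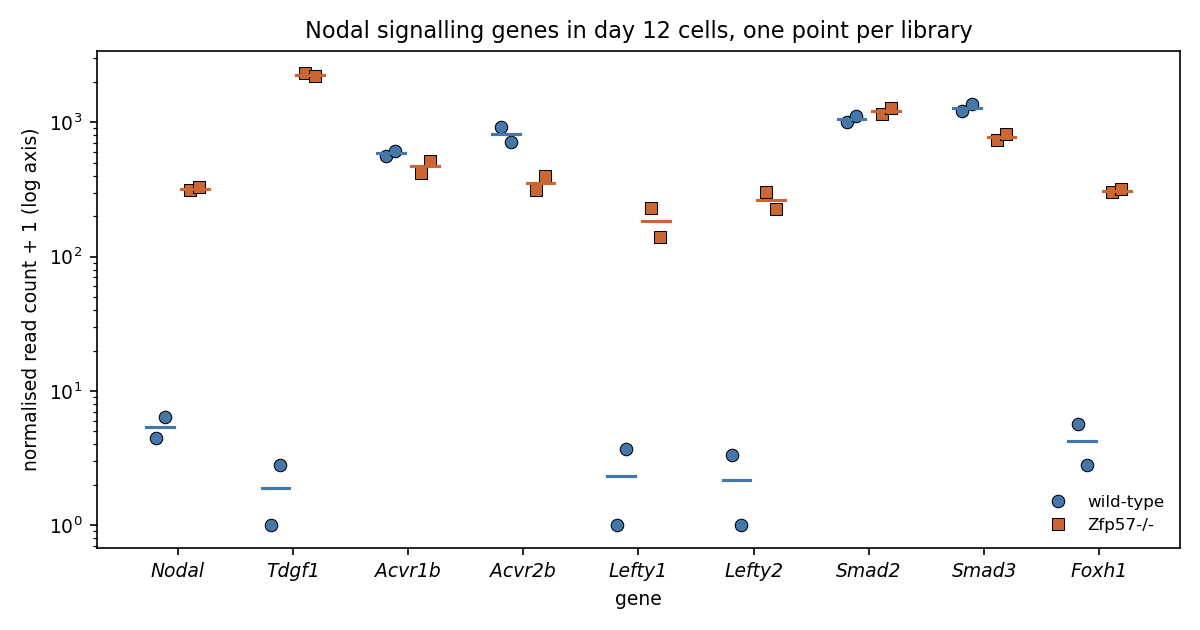
Normalised read counts plus 1 (log axis) of the 9 genes in each library, wild-type as blue circles and Zfp57-/- as orange squares, with a line at each group mean (n = 2). The libraries of the genotypes lie far apart for Nodal, Tdgf1, Lefty1, Lefty2 and Foxh1, while those of Smad2 and Acvr1b lie close together.

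The ligand *Nodal* (ENSMUSG00000037171.6) lies on chromosome 10 from 61417972 to 61425338, plus strand. Its counts rose from 3 and 6 in wild-type to 308 and 341 in *Zfp57*-/- cells, so the groups did not overlap. Scaled to the mean effective library size, these were 4.42 ± 1.33 and 318 ± 11.9 normalised read counts (SD, n = 2). The log2 fold change was 6.10 (standard error 0.35, edgeR adjusted p = 4.5e-06).

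The co-receptor *Tdgf1* (ENSMUSG00000032494.12, chromosome 9 from 110939603 to 110946158, minus strand), which presents Nodal to its receptors, gave the highest counts of the 9 genes in *Zfp57*-/- cells. It had 0 and 2 counts in wild-type cells and 2301 in each *Zfp57*-/- replicate. With 2 counts in all in wild-type cells, the ratio of normalised counts was 2235, with an exact 95% counting interval from 618 to 18459 (edgeR adjusted p = 1.7e-06). Such intervals, here of the Clopper-Pearson kind on the pooled counts of each group, cover counting error only.

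Of the inhibitors, which bind Nodal or its co-receptor and block signalling, *Lefty1* had 0 and 3 counts in wild-type cells and 226 and 145 in *Zfp57*-/- cells. The ratio was 120 (95% counting interval 40.8 to 585, edgeR adjusted p = 5.9e-05). *Lefty2* had 2 and 0 counts in wild-type cells and 301 and 235 in *Zfp57*-/- cells, a ratio of 260.3 (71.7 to 2155, adjusted p = 1.5e-05). For both genes the first *Zfp57*-/- replicate was the higher one, and every *Zfp57*-/- library lay far above every wild-type library.

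*Foxh1* (ENSMUSG00000033837.5, chromosome 15 from 76668225 to 76669948, minus strand) encodes the forkhead protein that carries SMAD2 and SMAD3 to many Nodal targets. It had 4 and 2 counts in wild-type cells and 299 and 329 in *Zfp57*-/- cells, with normalised counts of 3.22 ± 2.02 and 308 ± 10.2 (SD, n = 2). Its log2 fold change was 6.60 (standard error 0.40, edgeR adjusted p = 5.4e-06), and 7.31 and 6.01 without the first and the second wild-type replicate. The calls of *Nodal*, *Tdgf1*, *Lefty1*, *Lefty2* and *Foxh1* held in all 11 alternatives run, which included leaving out each library.

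The type II receptor *Acvr2b* (ENSMUSG00000061393.14, chromosome 9 from 119402118 to 119434995, plus strand) had 790 and 793 counts in wild-type cells and 308 and 416 in *Zfp57*-/- cells. Its normalised count fell from 813 ± 147 to 354 ± 62.7 (SD, n = 2), that is by 1.20 on the log2 scale (standard error 0.22, edgeR adjusted p = 0.0033). Without the first *Zfp57*-/- replicate the adjusted p was 0.069. The type I receptor *Acvr1b* (ENSMUSG00000000532.11, chromosome 15 from 101174067 to 101213684, plus strand) had 482 and 684 counts in wild-type cells and 417 and 541 in *Zfp57*-/- cells. Its normalised counts did not overlap between the groups, but the log2 fold change of -0.32 (standard error 0.20) did not pass the test (edgeR adjusted p = 0.26). Without the first wild-type replicate it did, with -0.41 and an adjusted p of 0.019.

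Of the effectors that the receptors phosphorylate, *Smad3* fell and *Smad2* did not pass the test. *Smad3* (ENSMUSG00000032402.12, chromosome 9 from 63646767 to 63757994, minus strand) had 1045 and 1519 counts in wild-type cells and 732 and 848 in *Zfp57*-/- cells, with normalised counts of 1286 ± 103 and 774 ± 53.7 (SD, n = 2). The log2 fold change was -0.73 (standard error 0.19, edgeR adjusted p = 0.018), and the call was lost without the first *Zfp57*-/- replicate (adjusted p = 0.31) or without the second (0.18). *Smad2* (ENSMUSG00000024563.15, chromosome 18 from 76241580 to 76305731, plus strand) had 859 and 1238 counts in wild-type cells and 1147 and 1332 in *Zfp57*-/- cells. Its log2 fold change was 0.21 (standard error 0.19, edgeR adjusted p = 0.45), and it was -0.46 with *Actb* as the scale, which lowered the median of all genes to -0.68.

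Per length of exon and library size, the order of the levels changed between the genotypes. In wild-type cells *Smad2* had the highest level, 31.6 ± 2.35 FPKM (SD, n = 2; fragments per kilobase of exon, scaled to library size as in CPM), followed by *Smad3* (24.8 ± 1.99 FPKM), *Acvr2b* (22.1 ± 3.98 FPKM) and *Acvr1b* (14.1 ± 0.898 FPKM). The other 5 genes lay between 0 and 0.363 FPKM in every wild-type library. *Smad3* and *Acvr2b* overlapped in their replicates, as did *Foxh1* and *Nodal*, and *Lefty1*, *Lefty2* and *Tdgf1*. In *Zfp57*-/- cells *Tdgf1* was first (91.9 ± 3.18 FPKM), then *Smad2* (36.5 ± 2.60), *Foxh1* (24.1 ± 0.795), *Nodal* (16.2 ± 0.606) and *Smad3* (14.9 ± 1.03), each of which lay apart from the next in both replicates. *Acvr1b* (11.3 ± 1.69 FPKM), *Lefty1* (11.1 ± 3.80), *Lefty2* (10.8 ± 2.24) and *Acvr2b* (9.62 ± 1.70) overlapped with their neighbours in the order.

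The sequences before the start sites of *Nodal*, *Tdgf1* and *Smad3* are shown because these genes moved in different directions and their windows differ in CpG content. They are the 250 bases before each start in RefSeq (GRCm38.p6), 5′ to 3′ on the strand of the gene, with each CpG in capitals. *Nodal* is at chr10:61417722-61417971 (plus strand), *Tdgf1* at chr9:110946159-110946408 (minus strand) and *Smad3* at chr9:63757995-63758244 (minus strand).
Nodal: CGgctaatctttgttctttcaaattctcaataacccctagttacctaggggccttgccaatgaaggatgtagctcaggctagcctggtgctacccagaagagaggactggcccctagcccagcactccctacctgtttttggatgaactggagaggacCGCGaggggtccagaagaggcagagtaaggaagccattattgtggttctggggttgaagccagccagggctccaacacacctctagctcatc
Tdgf1: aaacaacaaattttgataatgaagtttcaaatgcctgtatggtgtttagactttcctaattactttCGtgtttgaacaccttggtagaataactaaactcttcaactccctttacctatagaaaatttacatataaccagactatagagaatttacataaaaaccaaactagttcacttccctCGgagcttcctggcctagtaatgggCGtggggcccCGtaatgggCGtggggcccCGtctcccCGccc
Smad3: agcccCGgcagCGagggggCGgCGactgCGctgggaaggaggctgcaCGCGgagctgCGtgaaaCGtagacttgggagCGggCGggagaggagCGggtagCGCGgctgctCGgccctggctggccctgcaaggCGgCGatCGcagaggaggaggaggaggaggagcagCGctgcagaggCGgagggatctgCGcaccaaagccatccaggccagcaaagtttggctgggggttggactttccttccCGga
Promoter windows of 5 of the 9 members were compared. *Lefty1*, *Lefty2* and *Foxh1* had no window in the promoter set used. *Smad2*, which did not pass the test, was left out of the comparison by choice. *Nodal* had 3 CpG and 53.2% G or C, and *Tdgf1* had 7 CpG and 42.0%. The medians over 32817 promoter windows of the same length were 6 CpG and 52.4%. Of these windows 37.8% had as many CpG as *Nodal* or fewer, and 57% as many as *Tdgf1* or fewer. *Smad3* had 22 CpG and 69.2%, *Acvr2b* 24 CpG and 72.8%, and *Acvr1b* 42 CpG and 78.8%, the last with as many CpG as or more than 99.3% of the windows. The 2 windows of members that rose thus held fewer CpG than the 3 windows of members that fell or did not pass the test, and no test was made on 5 windows.

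**Figure D2:**
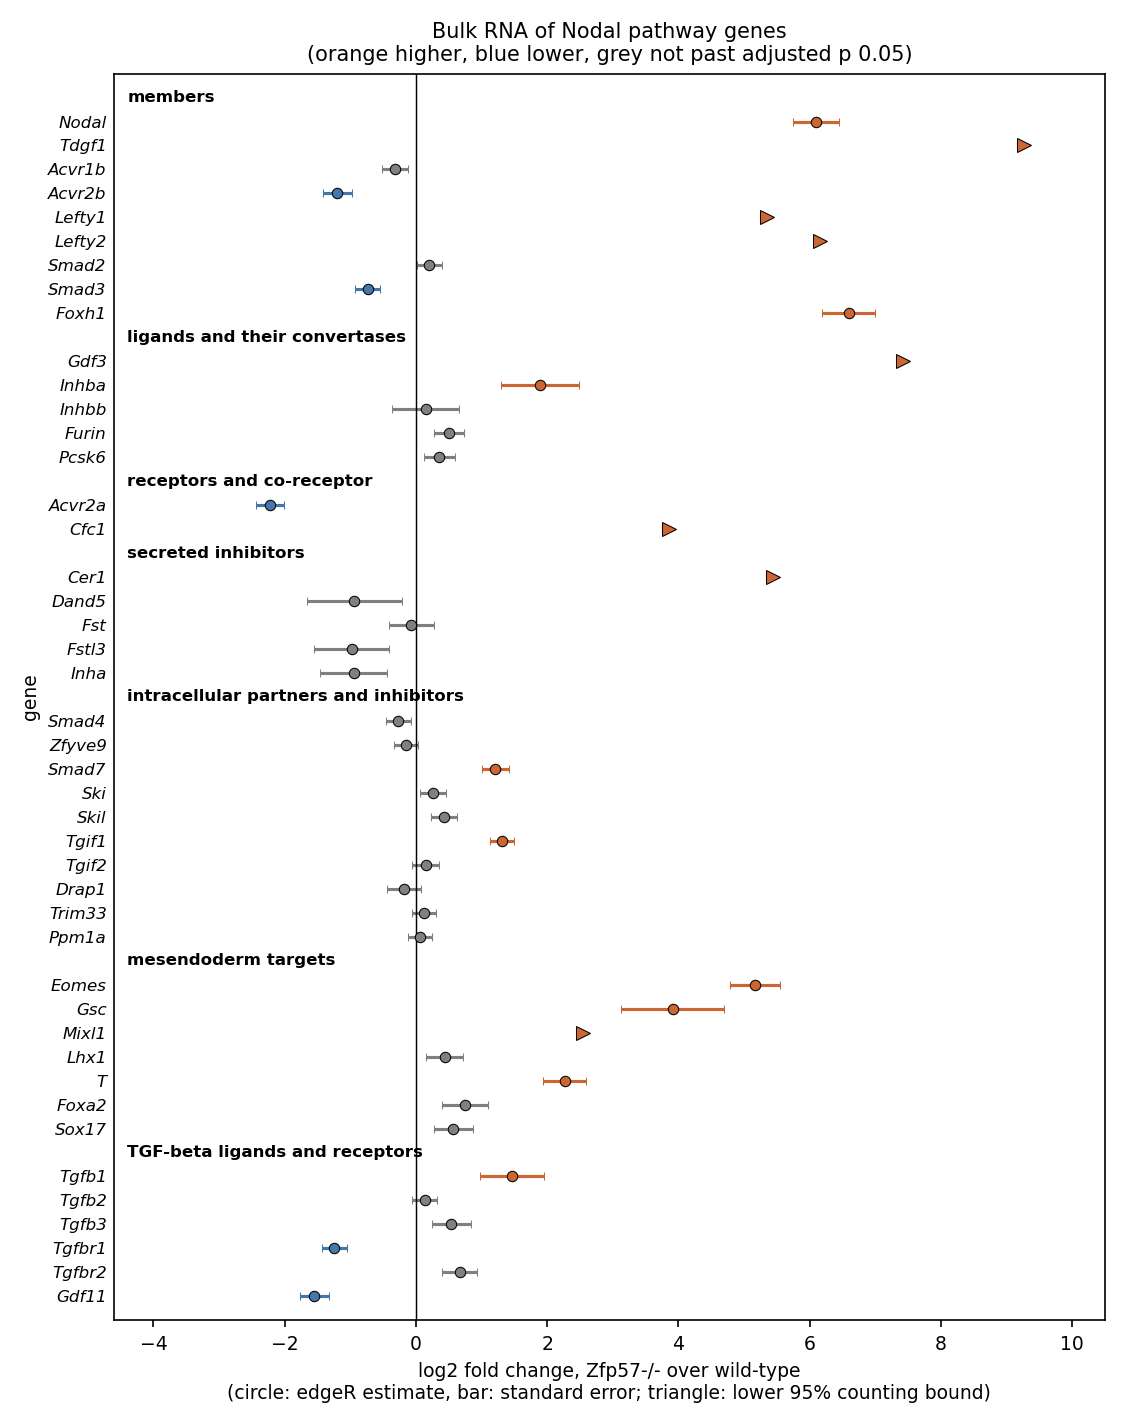
Log2 fold changes, Zfp57-/- over wild-type, of the 9 members and of the 35 tested genes of 6 other pathway lists, with circles for edgeR estimates, bars for standard errors and triangles for the lower 95% counting bound where wild-type cells had at most 3 counts in all. Orange marks genes past an adjusted p of 0.05 as higher, blue as lower and grey those that did not pass, and most intracellular partners lie near 0.

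Around the 9 genes, 37 other genes of the pathway were grouped by role, and 35 of them were tested. In *Zfp57*-/- cells 11 were higher and 3 lower, 14 of 35 against the 27.6% of all genes tested, and the median log2 fold change of the 35 was 0.43. Of the higher genes, *Gdf3*, *Cfc1*, *Cer1*, *Gsc* and *Mixl1* passed the filter on low counts only through the *Zfp57*-/- libraries. They could thus be tested only because they were high there, while *Gdf1* and *Acvr1c* did not pass the filter, so the count of higher genes is a description only. Of all genes 2607 were higher and 2915 lower, or 486 and 2994 with *Actb* as the scale. On that scale 8 of the 35 pathway genes passed, and of the genes named below *Inhba*, *Tgif1*, *Smad7*, *Gsc*, *Mixl1* and *Tgfb1* lost their calls (adjusted p from 0.0613 to 0.57). Without a filter on low counts *Sox17* (0.0462), *Foxa2* (0.00748) and *Tgfbr2* (0.0199) gained one.

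Of the ligands and the convertases that cleave them, *Gdf3*, an EGF-CFC-dependent relative of *Nodal*, had 0 counts in both wild-type libraries and 358 and 297 in *Zfp57*-/- cells. It was at least 104.55-fold higher against a floor of 3 counts per library (edgeR adjusted p = 6.8e-06). *Inhba*, a subunit of activin, rose by 1.90 on the log2 scale (adjusted p = 0.039), from 8 and 13 to 26 and 55 counts, and this call was lost without either *Zfp57*-/- replicate (adjusted p = 0.0705 and 0.47) and with DESeq2 (0.0547). The convertases *Furin* (log2 fold change 0.50, adjusted p = 0.13) and *Pcsk6* (0.35, 0.30) and the activin subunit *Inhbb* (0.15, 0.86) did not pass, except *Furin* without the second wild-type replicate (adjusted p = 0.00068). *Gdf1* had 0 counts in every library.

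Of the other receptors, *Cfc1*, the second EGF-CFC co-receptor, rose from 1 count in each wild-type library to 62 and 49. The ratio was 53.9 (95% counting interval 14.6 to 451, edgeR adjusted p = 0.00044). *Acvr2a*, the other type II activin receptor, fell by 2.22 on the log2 scale (adjusted p = 5.9e-05), from 1024 and 1094 to 214 and 259 counts. In *Zfp57*-/- cells its 76 allelic reads were all JF1, and none of them B6. The 95% Wilson interval of the JF1 share, which covers counting error only, reached down to 0.952. *Acvr2a* (chromosome 2 from 48814109 to 48903269) lies at the edge of a stretch of such genes, which its last bases overlap. The stretch, from 48902824 to 59846149 (10.9 Mb), was picked out by its near lack of B6 reads in *Zfp57*-/- cells. Its 19 other genes with 10 or more allelic reads per *Zfp57*-/- library all had a JF1 share of at least 0.999, which follows from that choice. In wild-type cells the median was 0.476 over 22 genes. Of 36 other genes tested in that stretch 22 were lower and 1 higher in bulk, with a median log2 fold change of -1.31. *Acvr1c*, another type I receptor, had 0 to 4 counts per library and was not tested.

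Of 5 secreted inhibitors, *Cer1*, which binds Nodal, was higher, with 1 count in each wild-type library and 148 and 177 in *Zfp57*-/- cells (ratio 158, 95% counting interval 43.3 to 1309, edgeR adjusted p = 1.4e-05). The activin antagonist *Fst* was counted 1671 and 5060 times in wild-type against 2655 and 3655 times in *Zfp57*-/- cells, and its log2 fold change was -0.07 (adjusted p = 0.90). Its direction depended on a single wild-type library, with -0.58 (adjusted p = 3.0e-05) without the first and 0.67 (adjusted p = 3.3e-06) without the second. *Inha* (-0.95, adjusted p = 0.20) and *Fstl3* (-0.98, 0.23) did not pass, except *Inha* without the second wild-type replicate (adjusted p = 0.0455).

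Of 10 intracellular partners and inhibitors, 2 were higher and 8 did not pass. The corepressor *Tgif1* rose by 1.31 on the log2 scale (adjusted p = 0.00070) and *Smad7*, an inhibitory SMAD that is also a target of the pathway, rose by 1.21 (0.0022). *Smad4*, the common partner of SMAD2 and SMAD3, gave -0.27 on the log2 scale (adjusted p = 0.33), *Drap1*, a corepressor that limits FOXH1, gave -0.18 (0.64) and *Trim33*, a ubiquitin ligase that binds SMADs, gave 0.12 (0.66). Without the first wild-type replicate *Smad4* (adjusted p = 0.022) and *Drap1* (0.0022) passed as lower.

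Among 7 mesendoderm targets 4 were higher and none lower. *Eomes*, a T-box factor of the primitive streak, rose by 5.17 on the log2 scale (edgeR adjusted p = 1.4e-05), from 13 and 7 to 329 and 433 counts. Its rise was 5.84 and 4.61 without the first and the second wild-type replicate. *T*, which marks early mesoderm, rose by 2.27 (0.00086), from 117 and 345 to 985 and 1215 counts, and by 1.78 and 2.98 without the first and the second wild-type replicate. *Gsc*, a homeobox gene of the organiser, rose by 3.91 (0.0051), from 3 and 1 to 30 and 37 counts, and by 5.00 and 3.19 without the first and the second wild-type replicate. The remaining higher gene, named after its values were seen, was *Mixl1*, a homeobox gene of the primitive streak, with 1 count in each wild-type library and 8 and 38 in *Zfp57*-/- cells (adjusted p = 0.016). It lost its call without the second *Zfp57*-/- replicate (adjusted p = 0.21). *Sox17* (log2 fold change 0.57, adjusted p = 0.18), *Foxa2* (0.75, 0.15) and *Lhx1* (0.44, 0.27) did not pass. Without the second wild-type replicate *Sox17* (1.12, adjusted p = 1.5e-13) and *Foxa2* (1.48, 6.2e-15) passed as higher, and without the first *Zfp57*-/- replicate *Foxa2* did too (1.03, 0.0455). Without the first wild-type replicate the log2 fold changes were 0.15 for *Sox17* (adjusted p = 0.40) and 0.25 for *Foxa2* (0.20), and without the second *Zfp57*-/- replicate 0.35 (0.62) and 0.43 (0.54). Under a replicate block both passed as higher, *Sox17* with 0.63 (adjusted p = 0.0131) and *Foxa2* with 0.83 (0.000816).

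Of 6 TGF-beta ligands and receptors that also signal through SMAD2 and SMAD3, *Tgfbr1*, the type I TGF-beta receptor, fell by 1.24 on the log2 scale (edgeR adjusted p = 0.0011) and *Gdf11*, a ligand of the activin receptors, by 1.55 (0.00073). *Tgfb1* rose by 1.46 (0.049), from 13 and 22 to 41 and 58 counts, a call that was lost without either *Zfp57*-/- replicate (0.20 and 0.42), with DESeq2 (0.0842) and with upper-quartile scaling (0.0534). *Tgfb2* (0.14, 0.64), *Tgfb3* (0.54, 0.21) and *Tgfbr2* (0.67, 0.091) did not pass. Without the second wild-type replicate *Tgfbr2* passed (1.07, adjusted p = 1.71e-08), as it did under a replicate block (0.69, 0.00686), while its log2 fold change was 0.34, short of the threshold, without the first wild-type replicate. Without that replicate *Tgfb3* passed (0.046).

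Markers of other cell types moved with these genes. All 6 pluripotent cell markers were higher in *Zfp57*-/- cells, and their summed level was 2.68 to 3.15 FPKM in wild-type and 562 to 698 FPKM in *Zfp57*-/- libraries. *Nanog* had 0 counts in both wild-type libraries and 903 and 938 in *Zfp57*-/- cells, and *Pou5f1* had 1 and 6 against 2747 and 2286. Of 3 primed epiblast markers 2 were higher, with summed levels of 19.1 to 26.6 FPKM and 66.5 to 77.3 FPKM. Of 6 neural progenitor markers 5 were lower and *Vim* did not pass. Their sums were 369 to 446 FPKM in wild-type and 202 to 204 FPKM in *Zfp57*-/- cells. Most of the latter sums came from *Vim* alone, with 156 and 154 FPKM, against 165 and 203 FPKM in wild-type cells. The label of neural progenitors thus held only in part for *Zfp57*-/- cells, in which *Hes5* had 12 and 10 counts against 317 and 459. All 4 neuron markers were lower (217 to 385 against 30.7 to 34.5 FPKM), among them *Dcx* (1795 and 2663 against 24 and 29 counts). Of 6 markers of primitive and visceral endoderm 2 were higher and none lower, and their sums overlapped (112 to 139 and 106 to 147 FPKM). Of 4 mesoderm markers tested 1 was higher (*T*) and 1 lower (*Kdr*), and *Mesp1* had a single count in all 4 libraries. The sums were 13.4 to 16.2 FPKM in wild-type and 49.6 to 56.7 FPKM in *Zfp57*-/- cells. Most of the latter came from *T* alone, with 45.7 and 53.6 FPKM, against 6.26 and 14.2 FPKM in wild-type cells. *T* is also one of the mesendoderm targets above. The part of these cell types in the levels of the Nodal signalling genes was not tested.

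**Figure D3:**
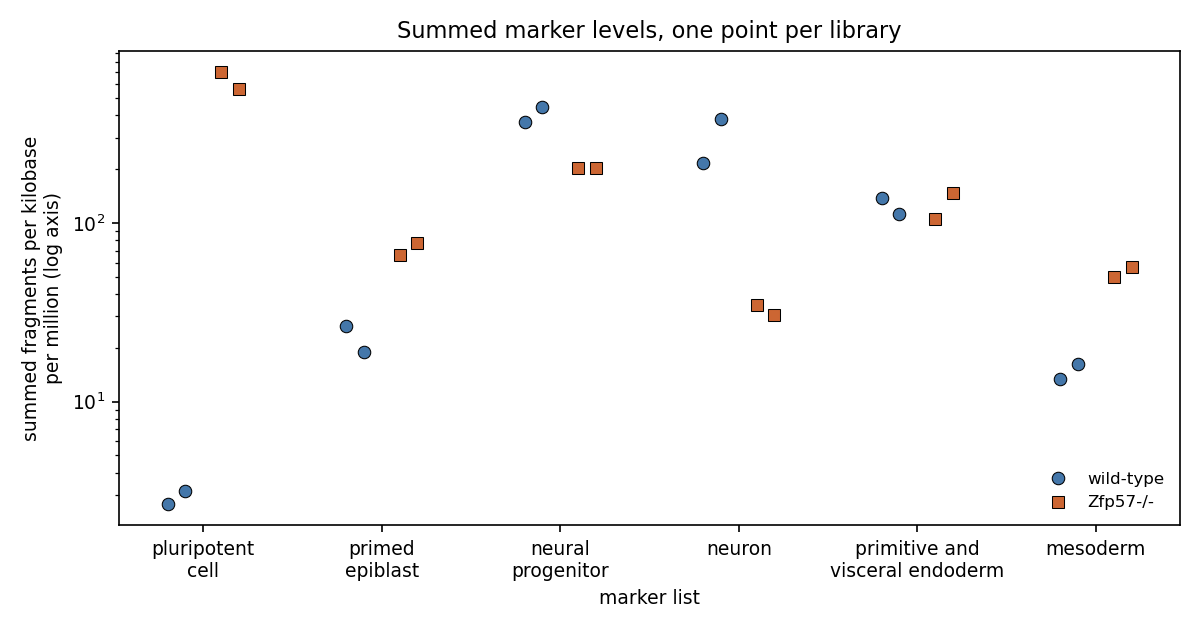
Summed FPKM (log axis) of 6 marker lists in each library, wild-type as blue circles and Zfp57-/- as orange squares. The pluripotent cell list lies above 560 FPKM in both Zfp57-/- libraries and below 3.2 FPKM in both wild-type libraries, and the neuron list shows the opposite order.

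The genes whose profile over the 4 libraries was nearest to that of a member, by Euclidean distance of centred log2 CPM (counts scaled to library size), were also near 0 in wild-type cells. For *Nodal* they were *Dppa3-ps* (distance 0.33), *Platr22* (0.36) and *Eras* (0.38), and for *Lefty1* they were *Zfp978* (0.36), *EU599041* (0.36) and *Eras* (0.54). For *Lefty2* they were *2410141K09Rik* (0.09), *Nr0b1* (0.26) and *Zfp459* (0.34). For *Tdgf1* they were *Pou5f1* (0.74), *Nanog* (1.08) and *Tdh* (1.23). All distances rest on the same 4 libraries.

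In the fit on all 4 libraries the genes next to the 5 members that rose had smaller log2 fold changes than these members. Over 16 of the nearest tested genes, up to 2 on each side and at 29 to 76249 bases, 4 were higher, none lower and 12 did not pass, with log2 fold changes from -0.97 to 2.92 and a median of 0.38. Those that rose, named after their values were seen, were *Pald1* beside *Nodal* (0.94), *Als2cl* (1.13) and *Lrrc2* (2.92) beside *Tdgf1*, and *Sde2* (0.74) before *Lefty2*. Leaving out a single library ended the calls of *Pald1* (adjusted p = 0.14 without the first *Zfp57*-/- replicate), *Lrrc2* (0.058 without the second) and *Sde2* (0.135 and 0.26 without the first and the second), and with *Actb* as the scale none of the 4 passed (0.0929 to 0.904). The value of *Lrrc2* rested on 0 and 10 counts in wild-type against 34 and 42 in *Zfp57*-/- cells. It was 2.02 without the first wild-type replicate and 8.17 without the second, where the remaining library had 0 counts and the estimate depends on the prior count. None of the 4 tested neighbours of *Foxh1* passed, with log2 fold changes from -0.44 to -0.03.

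**Figure D4:**
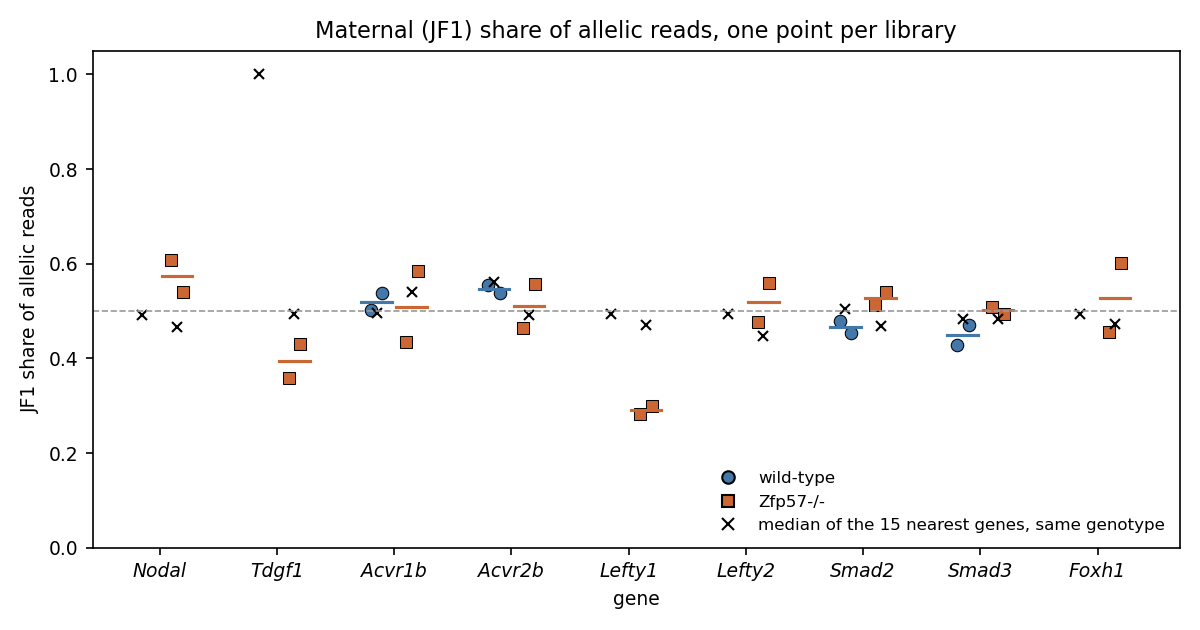
JF1 share of the allelic reads of each member (0 all paternal, 1 all maternal), with a point for each library of a genotype with at least 10 allelic reads per library, a line at the mean (n = 2) and a cross at the median share of the 15 nearest genes in the same genotype. Lefty1 and Tdgf1 lie below 0.5 in both Zfp57-/- libraries, and the genes near Tdgf1 have a median of 1.00 in wild-type cells.

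The allele-specific table tells from which parental copy the members were read. A JF1 share of 0.5 means equal reads from the maternal and the paternal copy, and a gene was tested in a genotype where it had at least 10 allelic reads in each library. In wild-type cells this held for *Acvr1b*, *Acvr2b*, *Smad2* and *Smad3*, while the other 5 members had 0 to 4 allelic reads per library. In *Zfp57*-/- cells it held for all 9, with 294 to 1428 allelic reads per gene over both replicates.

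In *Zfp57*-/- cells both parental copies of the 5 members that rose were read. *Lefty1* had 50 JF1 and 127 B6 reads in the first replicate and 35 and 82 in the second, a JF1 share of 0.291 ± 0.0118 (SD, n = 2). Its log2 ratio of JF1 over B6 was -1.29 (standard error 0.25, edgeR adjusted p = 1.45e-05, DESeq2 adjusted p = 0.11). *Tdgf1* had 258 JF1 and 462 B6 reads and 305 and 403 reads, a share of 0.395 ± 0.0512 (log2 ratio -0.62, standard error 0.12, edgeR adjusted p = 5.6e-06, DESeq2 0.13), and without the first *Zfp57*-/- replicate its edgeR adjusted p was 0.0515. Both thus gave more reads from the B6 copy in both replicates, by edgeR only. Of 11005 genes tested in *Zfp57*-/- cells 23.6% passed, 13.4% with more B6 reads, beside these 2 of 9 members.

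*Nodal* had 126 JF1 and 81 B6 reads and 119 and 101 reads, a share of 0.575 ± 0.0479 that did not pass (log2 ratio 0.43, standard error 0.20, edgeR adjusted p = 0.12). *Lefty2* (share 0.518 ± 0.0590) and *Foxh1* (0.528 ± 0.103) were on different sides of 0.5 in the 2 replicates, and neither passed. The 15 nearest genes with enough reads had a median share of 0.471 around *Lefty1* (range 0.340 to 0.576), so that *Lefty1* lay below each of them, and of 0.493 around *Tdgf1* (0.353 to 0.575).

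Of the 4 members with enough reads in wild-type cells, *Smad3* passed there, with a JF1 share of 0.450 ± 0.0307 (log2 ratio -0.28, standard error 0.10, edgeR adjusted p = 0.038), where 23.4% of 11079 genes did. The call was lost with DESeq2 (adjusted p = 0.49) and without either wild-type replicate (0.65 and 0.096). The genotype-by-allele contrast, which asks whether the allelic ratio differed between the genotypes, passed for 0 of the 4 by edgeR, 0 at an unadjusted p under 0.05 and 0 by DESeq2, where 15.4% of 10091 genes passed by edgeR. Its values were 0.36 for *Smad2* (standard error 0.18, adjusted p = 0.225), 0.29 for *Smad3* (0.16, 0.28), -0.17 for *Acvr2b* (0.25, 0.79) and -0.05 for *Acvr1b* (0.26, 0.96).

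The genes around *Tdgf1* were read from the maternal copy in wild-type cells and from both copies in *Zfp57*-/- cells. A stretch of chromosome 9 from 107681500 to 111395775 (3.71 Mb) was picked out by its near lack of B6 reads in wild-type cells. Its 62 other genes with enough allelic reads all had a JF1 share of at least 0.95 in wild-type cells, which follows from that choice. In *Zfp57*-/- cells 64 genes there had a median share of 0.494. In bulk, of 95 other genes tested in the stretch 9 were higher and 9 lower in *Zfp57*-/- cells, with a median log2 fold change of 0.12. The single allelic read of *Tdgf1* in wild-type cells was JF1.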

How the data were processed

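RNA from 2 wild-type and 2 *Zfp57*-/- day 12 replicates was analysed. The authors trimmed the paired reads (Trimmomatic 0.36), aligned them to GRCm38 with STAR 2.5.4a, kept unique alignments and deposited raw counts per GENCODE vM20 gene from featureCounts (Subread 1.6.0), stranded and over the union of exons. The second table of deposited counts splits reads by strain SNPs into JF1 and B6 alleles, and all its values are whole numbers. Neither table is normalized. Reads without a SNP are not in the allele table.

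Symbols were joined by gene identifier without version (54721 of 55602). Genes with over 8 counts summed over the 4 libraries were tested with edgeR 4.0.16 (R 4.3.3; TMM scaling, robust quasi-likelihood test, Benjamini-Hochberg adjustment), where the study used DESeq2, here the alternative (1.42.0). FPKM used the exon lengths of the table and the TMM library sizes. Allelic counts were tested with edgeR, the model holding the libraries and, by genotype, the allele, on autosomal genes with at least 10 allelic reads per library. Counting intervals are exact at 95% and floors are 3 counts. The bulk fits and the edgeR genotype-by-allele contrast were also run on simulated counts. These had the same dispersion for all genes in bulk, and allelic reads with counting error only. They do not check the allelic calls within a genotype.

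The members, lists and alternatives were chosen with earlier results of these data known. All members are named, and of each other list up to 3 genes past the threshold per direction, by adjusted p, and up to 3 of the highest FPKM that did not pass, and 3 nearest profiles for *Nodal*, *Lefty1*, *Lefty2* and *Tdgf1*. Same-numbered replicates share only a number. Promoters are from RefSeq, and the Lefty coding and read-window comparisons from GENCODE vM21, whose coordinates were the same for 8 of the 9 members. Some items are not reported here.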

Additional observations from a re-analysis of the deposited data

Results flagged for a closer look

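The allelic ratios of 4 of the 24 other pathway genes with enough reads differed between the genotypes by the genotype-by-allele contrast (edgeR), where 15.4% of all genes tested did, so their share was near the background. None of the 4 members with enough reads passed. The mean JF1 share in *Zfp57*-/- minus wild-type cells was 0.48 for *Acvr2a* (adjusted p = 7.3e-13), which lies at the edge of the stretch of chromosome 2 described above. It was 0.133 for *Sox17* (adjusted p = 7.5e-05), from 0.557 ± 0.0234 to 0.690 ± 0.00598 (SD, n = 2), where the 15 nearest genes had a median share of 0.673 in *Zfp57*-/- and 0.476 in wild-type cells. It was -0.121 for *Zfyve9*, which anchors SMAD2 and SMAD3 to endosomes (adjusted p = 0.0037), and -0.108 for *Tgfbr2* (adjusted p = 0.0446). By DESeq2 *Zfyve9* (adjusted p = 0.44) and *Tgfbr2* (0.59) did not pass. Neither did *Zfyve9* without the first wild-type (0.091) or the first *Zfp57*-/- replicate (0.445), nor *Tgfbr2* without either wild-type replicate (0.22 and 0.23) or the first *Zfp57*-/- replicate (0.17).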

How the results depend on the processing

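The number of Nodal signalling genes past the threshold in bulk was 7 in the reported fit and in 8 of the 11 alternatives, and 8, 5 and 6 without the first wild-type, the first *Zfp57*-/- and the second *Zfp57*-/- replicate. Leaving out single replicates moved the number of all genes past the threshold from 5522 to between 2831 and 9947, and the log2 fold changes to between -0.47 and -0.17 for *Acvr1b*, -1.38 and -1.02 for *Acvr2b*, -0.84 and -0.65 for *Smad3*, -0.27 and 0.66 for *Inhbb*, -0.58 and 0.67 for *Fst* and -0.55 and 0.27 for *Drap1*. With *Actb* as the scale the median of all genes was -0.68, 3480 genes and 8 of the other pathway genes passed, and the log2 fold change was -0.46 for *Smad2*, -0.15 for *Furin*, -0.33 for *Pcsk6*, -0.67 for *Inhbb*, -0.55 for *Trim33*, -0.27 for *Lhx1*, -0.56 for *Tgfb2* and -0.19 for *Tgfb3*, while 14% of the genes that passed were higher, against 47.2%. The cause of these changes was not tested.

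Same-numbered replicates deviated together with a correlation of 0.156 over 10149 genes. Under a replicate block 6984 genes passed (3489 higher and 3495 lower), the members' count stayed at 7, 17 of the other pathway genes passed against 14 (*Sox17*, *Foxa2* and *Tgfbr2* were gained), *Fst* had 0.043, and the log2 allele ratios of JF1 over B6 were -0.16 (*Acvr1b*) and -0.016 (*Zfyve9*) in wild-type and -0.13 (*Lefty2*), -0.20 (*Acvr1b*), -0.044 (*Smad3*) and -0.25 (*Foxh1*) in *Zfp57*-/- cells.

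Of the allelic calls of members, the 1 in wild-type cells became 0 with DESeq2 and with the block and 0 to 1 without single replicates, and the 2 in *Zfp57*-/- cells became 0 with DESeq2 and 1 to 2 without single replicates. Without single replicates the log2 allele ratio in *Zfp57*-/- cells lay between -0.13 and 0.35 for *Lefty2*, -0.38 and 0.49 for *Acvr1b*, -0.21 and 0.34 for *Acvr2b*, -0.031 and 0.053 for *Smad3* and -0.26 and 0.59 for *Foxh1*, and the genotype-by-allele contrast between -0.51 and 0.36 for *Acvr1b* and -0.48 and 0.060 for *Acvr2b*. Pooling the reads of the replicates moved no JF1 share by more than their SD. In wild-type libraries *Nodal*, *Tdgf1*, *Lefty1*, *Lefty2* and *Foxh1*, which had 0 to 6 bulk counts per library, had 0 to 4 allelic reads, too few for a test of their alleles there.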
